A study of Mus musculus with 7 samples.

Results

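Interferon-stimulated genes were followed across mouse stomach tissue derived in culture from embryonic stem (ES) cells, embryonic stomach and 4 adult organs. The set is a fixed list of 9 genes, Ifi44, Ifit1, Ifit2, Ifit3, Isg15, Irf7, Oasl2, Usp18 and Rsad2, among 17047 named genes on the arrays. Their probes were found through the accession printed for each probe, which gave 12 probes, because Ifit2 has 2 probes and Rsad2 has 3. No measured value entered the choice of probes, but the genes were listed with earlier results of these data known.

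Interferons are secreted proteins that cells release on sensing viral nucleic acid. Type I and type III interferons bind receptors on neighbouring cells, the receptor-bound kinases activate transcription factors, and these join Irf9 in a complex that binds a short element in the promoters of its target genes. The products block viral RNA and protein synthesis, and in the gut and the airways the barrier epithelium and resident leukocytes both use the pathway, including at a low tonic level without infection.

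RNA of 7 samples was measured on 7 one-colour arrays, 1 array for each group, so the group comparisons have no replicate check and carry no test, error or p-value. The day 42 group was stomach-type tissue that had grown for 42 days in a medium (DMEM/F12 with N2/B27) with 50 ng/mL EGF, 100 ng/mL FGF10, the growth factor Wnt3a, the BMP inhibitor Noggin and 250 ng/mL R-spondin1, an enhancer of Wnt signalling. The day 46 group was the same kind of tissue after 4 further days with 100 ng/mL Shh and 10 ng/mL Bmp4. The other 5 groups were the stomach primordium of ICR mice at embryonic day 9.5 (E9.5) and the stomach, intestine, lung and esophagus of adult ICR mice. EGF and FGF10 were human recombinant proteins, and the base medium with EGF was common to both groups. The labels leave unsaid whether FGF10, Wnt3a, Noggin and R-spondin1 stayed in during the last 4 days. The ES cell line, the age and sex of the adult animals and the number of cultures or animals behind each RNA sample are not given in the labels. The organs were taken whole, so each RNA sample mixes epithelium, stroma, vessels and leukocytes, and fewer cells of a type cannot be told apart from less RNA per cell.

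A level is the log2 of a probe's background-corrected intensity minus the 75th percentile of its array, so a level of 0 lies at that percentile. Levels of single probes are not compared with each other, because probes differ in how brightly they bind. The summed signal of a list adds different probes, so it gives most weight to the brightest of them. It is set only against the sum of the same probes on other arrays, and can differ in direction from the median over genes. Between 77.8% (adult lung) and 90.5% (day 46) of the named genes were well above background, and 78.4% were on the day 42 array. The 4 adult organs shared 1 slide, and the other 3 arrays each lay on a slide of their own, so slide and sample cannot be told apart for them. Spike-in controls (10 probes) were dimmer on the day 46 array, by a median log2 difference of -2.93 against the other arrays before scaling, and brighter on the day 42 array, by 1.11. Each adult organ's marker list had its highest summed signal in that organ. That of the adult stomach markers was 4853 times the 75th percentile in adult stomach, 225 times at day 46 and 27.2 times at day 42. It was under 1 in the other 4 samples. Not every list was confined to its organ. Lung markers summed to 149 times in esophagus (2438 in lung), and esophagus markers to 432 times in adult stomach (1395 in esophagus). Spread was read from 245 probes printed as 10 spots, whose median SD between spots was 0.06 to 0.10 log2 units per array, and from genes that have several probes. The second measure, the SD between probes of a log2 difference, was 0.28 to 0.71 for the pairs of arrays compared here, and differences below it are described as lying within it. Neither measure holds the variation between cultures, animals or repeat arrays, so a difference beyond the SD is not thereby a reproducible one.

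A promoter sequence was at hand for 8 of the 9 genes, taken from RefSeq on the GRCm38.p6 build. The 250 bases before the annotated start were searched on both strands for GAAANNGAAA and its reverse complement TTTCNNTTTC, the core of the interferon-stimulated response element to which the complex with Irf9 binds. Of the 8 genes, 4 held the core, against 2.98% of 32851 promoters of the same length and 27.6% of 29 other listed type I response genes. Ifit1, on chromosome 19 (chr19:34640639-34640888, plus strand), held 2 matches, which began 104 and 85 bases before the start. Ifit3, in the same cluster (chr19:34583279-34583528, plus strand), also held 2, which began 156 and 122 bases before the start. Isg15, on chromosome 4 (chr4:156200819-156201068, minus strand), held 3 matches that overlap, beginning 78, 72 and 66 bases before the start. Only 59 promoters, or 0.18% of all, held 2 or more. Rsad2, on chromosome 12 (chr12:26456453-26456702, minus strand), held a single match 120 bases before its start. No match was found for Ifi44, Oasl2, Irf7 or Ifit2, and Ifit2 has 2 annotated starts. The 4 promoters with a match are shown with the second Ifit2 start (chr19:34550838-34551087, plus strand), an example without a match that was chosen after its levels were seen. Ifi44, Oasl2 and Irf7 also held no match, and their levels followed the outline that most of the genes shared. A link between matches and levels was not tested. Sequences run 5′ to 3′ on the strand of the gene, and capitals mark the matches.
Ifit1: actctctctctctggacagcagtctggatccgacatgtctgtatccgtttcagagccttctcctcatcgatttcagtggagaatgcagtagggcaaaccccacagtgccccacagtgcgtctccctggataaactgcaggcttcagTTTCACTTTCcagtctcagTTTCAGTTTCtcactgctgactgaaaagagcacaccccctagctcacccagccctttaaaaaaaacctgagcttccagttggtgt
Ifit3: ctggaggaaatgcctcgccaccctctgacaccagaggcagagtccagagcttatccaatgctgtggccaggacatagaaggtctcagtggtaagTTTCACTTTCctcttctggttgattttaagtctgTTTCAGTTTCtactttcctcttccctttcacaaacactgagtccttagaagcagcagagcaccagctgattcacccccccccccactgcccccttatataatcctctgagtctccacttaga
Isg15: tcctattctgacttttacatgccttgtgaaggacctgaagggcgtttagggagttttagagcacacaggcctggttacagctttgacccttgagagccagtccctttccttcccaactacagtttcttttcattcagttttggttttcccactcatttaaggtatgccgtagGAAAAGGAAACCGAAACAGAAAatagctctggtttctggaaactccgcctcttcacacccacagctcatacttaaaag
Rsad2: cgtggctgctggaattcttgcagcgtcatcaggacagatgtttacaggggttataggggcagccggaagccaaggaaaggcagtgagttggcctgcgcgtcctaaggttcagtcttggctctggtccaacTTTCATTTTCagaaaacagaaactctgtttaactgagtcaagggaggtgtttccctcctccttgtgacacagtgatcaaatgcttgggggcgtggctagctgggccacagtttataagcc
Ifit2: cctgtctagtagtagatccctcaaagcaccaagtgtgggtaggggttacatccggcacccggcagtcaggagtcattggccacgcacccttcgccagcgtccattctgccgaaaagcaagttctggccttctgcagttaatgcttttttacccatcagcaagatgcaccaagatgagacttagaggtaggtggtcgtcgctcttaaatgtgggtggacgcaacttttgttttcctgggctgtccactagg
A match is a description of these letters, and the absence of a match says only that the letters do not occur in this window.

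**Figure D1:**
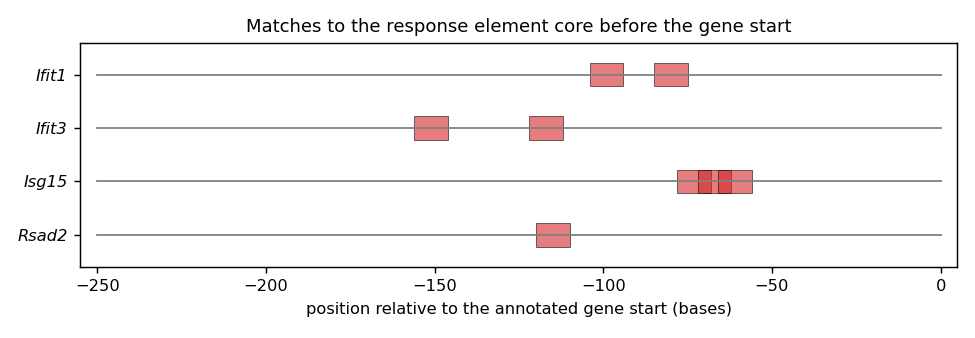
Positions of matches to the response element core in the 250 bases before the annotated start of Ifit1, Ifit3, Isg15 and Rsad2, in bases relative to the start; each box is 1 match of 10 bases. Ifit1 and Ifit3 each have 2 separate matches, Isg15 has 3 that overlap, and Rsad2 has 1.

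Across the 7 arrays, 8 of the 9 genes shared one outline. By the brightest probe they were lowest in E9.5 stomach, next lowest in the day 42 tissue, and highest in adult intestine or adult lung. Ifit2 departed from that order. The day 42 place was not set for all of them: Ifit3 and Isg15 lay within the SD of adult stomach, and Irf7 within that of day 46. For Ifi44, lung lay within the SD of day 46. How many of all genes have this order was not counted. On 6 arrays all 9 genes were well above background, and on the E9.5 array 5 of them were. Levels of the Ifit family, RNA-binding proteins that block the translation of foreign RNA, are given first.

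Ifit1, which binds viral RNA whose cap lacks the host's methylation, stood at -3.75 on day 42, -1.79 on day 46, -1.59 in adult stomach, 0.66 in intestine, 0.41 in lung and -1.27 in esophagus. Its E9.5 signal was not well above background. Intestine and lung were the 2 high samples and lay within the SD between probes of each other, as did the day 46 tissue and adult stomach. Ifit3, whose human counterpart stabilises the binding of IFIT1 to RNA, stood at -1.06 on day 42, 0.67 on day 46, -6.32 at E9.5, -0.91 in adult stomach, 0.81 in intestine, 1.76 in lung and 0.22 in esophagus. Lung was the high sample, the day 46 tissue lay within the SD of intestine and of esophagus, and the day 42 tissue lay within the SD of adult stomach. The Ifit3 probe may also detect the near-identical neighbour Ifit3b, which was not checked, because probe sequences were not used here.

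Ifit2 was the member with the smallest range, 3.70 log2 units against 6.67 to 9.36 for the other 8. Its brighter probe read -4.23 on day 42, -3.14 on day 46, -2.41 at E9.5, -2.79 in adult stomach, -2.82 in intestine, -1.10 in lung and -0.52 in esophagus. Its second probe read -5.36, -5.11, -2.94, -3.02, -3.32, -1.25 and -1.53 on the same arrays in that order. By both probes lung and esophagus were the high samples and the day 42 tissue was lowest, while E9.5 stomach lay within the SD of adult stomach. By the second probe the day 46 tissue lay within the SD of the day 42 tissue.

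Isg15, a ubiquitin-like protein that is attached to other proteins, stood at -0.10 on day 42, 1.47 on day 46, -5.29 at E9.5, 0.23 in adult stomach, 2.40 in intestine, 0.80 in lung and 0.61 in esophagus. Intestine was the high sample, the day 46 tissue came next, and lung and esophagus lay within the SD of each other. Usp18, the protease that removes Isg15 and also dampens signalling at the type I receptor, stood at -1.65 on day 42, -0.58 on day 46, -0.95 in adult stomach, 0.25 in intestine, 0.30 in lung and -0.48 in esophagus. At E9.5 it was not well above background. Lung and intestine were level within the SD, and esophagus lay 0.73 below intestine, with the day 46 tissue and adult stomach following it by gaps within the SD.

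Irf7, the transcription factor that drives the interferon alpha genes, stood at -3.49 on day 42, -3.12 on day 46, -1.51 in adult stomach, 1.94 in intestine, -1.79 in lung and -1.21 in esophagus, and was not well above background at E9.5. Intestine stood alone, 3.15 log2 units above the next sample, and esophagus, adult stomach and lung followed by gaps within the SD. Both ES-derived samples lay at least 1.33 below all 4 adult organs.

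Oasl2, a relative of the antiviral oligoadenylate synthetases, stood at -0.42 on day 42, 0.21 on day 46, -4.28 at E9.5, 0.46 in adult stomach, 3.09 in intestine, 1.76 in lung and 1.06 in esophagus. Intestine was the high sample, followed by lung and esophagus, with gaps larger than the SD between the adult organs. Ifi44, an interferon-induced protein of the cytoplasm, stood at -3.02 on day 42, -1.05 on day 46, -2.02 in adult stomach, -1.88 in intestine, -0.47 in lung and -2.11 in esophagus, and was not well above background at E9.5. Here the day 46 tissue was second to lung, by a gap within the SD, and stood 0.84 above intestine.

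Rsad2 encodes viperin, a radical SAM enzyme that makes a nucleotide analogue which stops viral RNA synthesis. Its brightest probe read -4.31 on day 42, -3.33 on day 46, -5.59 at E9.5, -1.55 in adult stomach, -0.48 in intestine, 1.21 in lung and 0.08 in esophagus. Lung was the high sample and every gap in the order exceeded the SD. The other 2 Rsad2 probes were not well above background on the day 42 and E9.5 arrays, and placed the remaining samples in the same order, with lung highest and day 46 lowest.

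**Figure D2:**
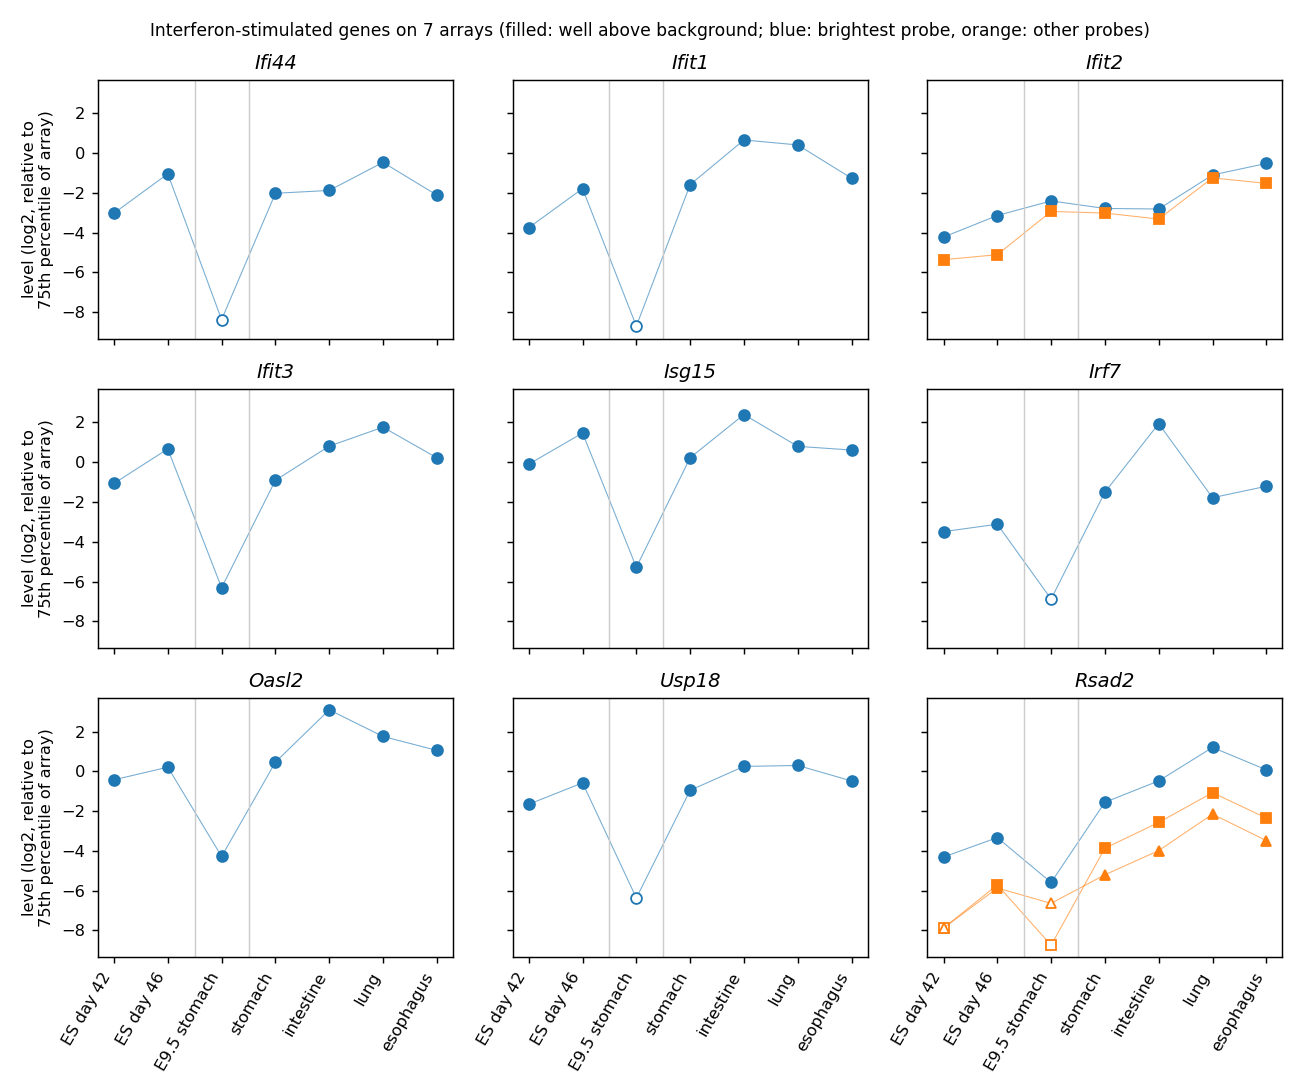
Level of each gene on each of the 7 arrays, in log2 units relative to the 75th percentile of the array; each point is 1 probe on 1 array, filled where it was well above background, blue for the brightest probe of a gene and orange for the others, with grey lines parting the ES-derived, embryonic and adult samples. The panels dip at E9.5 for 8 of the genes, while Ifit2 stays at -2.41 there.

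The tissue after 4 days with Shh and Bmp4 was compared with the day 42 tissue to ask how the second medium and time together went with the response genes. All 9 genes were higher on the day 46 array, with a median difference of 1.09 log2 units, against 0.00 over the 15453 genes measured. At least 2-fold higher were 6 of the 9 genes, against 9% of all genes, and none was at least 2-fold lower, against 6.47% of all genes. Among 6264 genes whose mean level lay in the range of the 9, 10.7% were at least 2-fold higher and the median was 0.03.

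Ifi44 was 3.94-fold higher (1.98 log2 units) and Ifit1 3.91-fold (1.97), and only 1.06% and 1.11% of all genes had a larger difference. Ifit3 was 3.32-fold higher (1.73 log2 units) and Isg15 2.96-fold (1.57). Those differences were more than 3 times the SD between probes of this comparison, 0.42 log2 units, which holds no variation between cultures. Usp18, which removes Isg15, was 2.11-fold higher (1.07 log2 units). Ifit2 was 2.12-fold higher (1.09) by its brighter probe and 1.19-fold (0.25) by the other, which lies within the SD, so its place past 2-fold rests on the choice of probe. By its brightest probe Rsad2, at 1.97-fold (0.98), lay just inside the 2-fold limit. Its other probes were not well above background on day 42 and their bound gave no fold, so its place rests on that probe. Oasl2 was 1.56-fold higher (0.64). Irf7 differed by 0.37 log2 units, within the SD, and stood at -0.026 with arrays centred on their medians and at -0.058 after quantile normalization.

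The scale of this comparison depends on the centring. With each array centred on its median, the median of all genes became -0.39. Higher genes made up 17.6% of the 2-fold calls, in place of 58.2%. Under that centring 4 of the 9 genes stayed at least 2-fold higher, against 3.86% of all genes. Relative to all genes, the median of the 9 was then 1.08. Quantile normalization put higher genes at 41.2% of the 2-fold calls. It left 4 of the 9 genes at least 2-fold higher, against 4.69% of all genes, and the 9 genes with a median of 0.94. Their direction was the same under each scaling for all but Irf7.

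**Figure D3:**
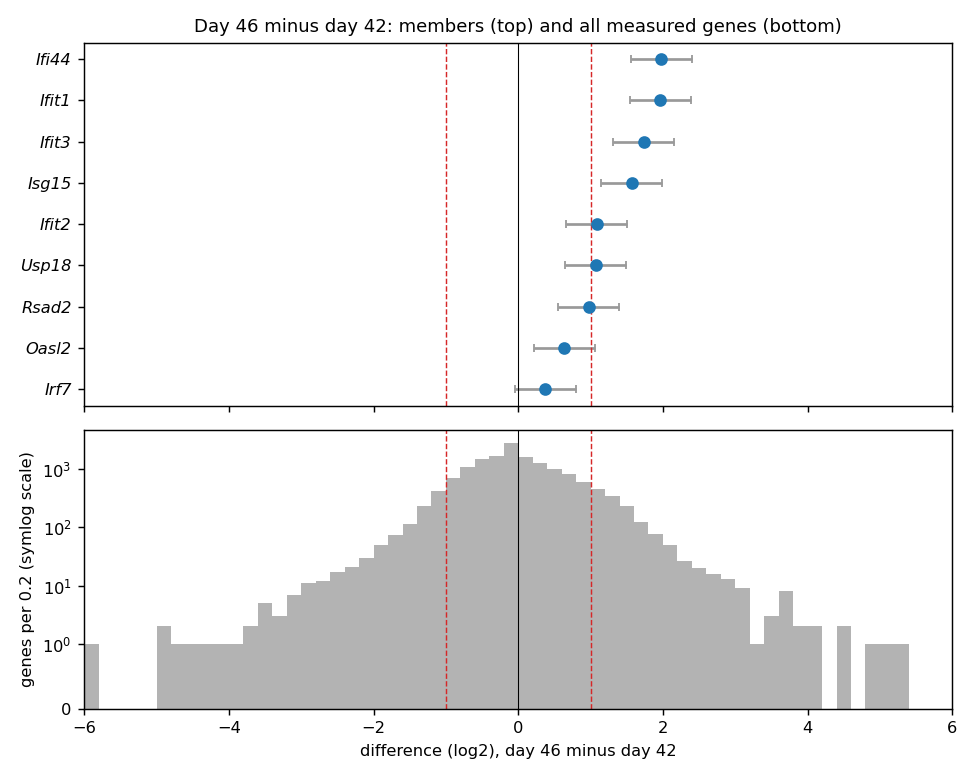
Upper panel: log2 difference of each gene between the day 46 and the day 42 array, with bars of 1 SD between probes (0.42), which do not show variation between cultures. Lower panel: number of measured genes per 0.2 log2 units on a symlog axis, with dashed lines at 2-fold. The 9 genes run from 0.37 (Irf7) to 1.98 (Ifi44), all to the right of the median of all genes.

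The rest of the interferon system was read from lists written for this purpose. Of 33 other type I response genes with a probe, 32 were measured at day 46 against day 42, and their median difference was 0.13, with 4 at least 2-fold higher and 2 lower. The higher genes included Oasl1 (2.06), Oas3 (1.02), an oligoadenylate synthetase, and Rtp4 (1.01), in log2 units. The lower genes were Ifitm1 (-2.84) and Ifitm2 (-1.29), membrane proteins that hinder the entry of enveloped viruses. Ifi44l (at least 1.94-fold higher) and Cmpk2 (at least 1.83-fold) were not well above background on day 42, so their place relative to 2-fold is not set, and the remaining 24 lay inside it. The interferon gamma response genes had a median of -0.13 over 20 genes, with Gbp5, a guanylate-binding protein, higher by 1.82 and Tgtp1, an immunity-related GTPase, lower at -1.67.

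Upstream of the response genes, none of the 6 receptor genes was past 2-fold, with a median of -0.15, Ifnar1 at 0.21 and Ifnar2 at -0.22. None of the 12 kinase and transcription factor genes was past 2-fold either (median -0.09), and Stat2 stood at -0.20, Irf9 at 0.44 and Jak2 at 0.96. Of 14 sensors and adaptors of foreign nucleic acid, 1 was at least 2-fold higher, the DNA sensor Aim2, at least 2.15-fold and not well above background on day 42. The others included Ikbke at -1.00 and Tbk1 at 0.94, kinases that activate Irf3 and Irf7. Among negative regulators, 1 of 7 was past 2-fold, the phosphatase Ptpn6 at -1.33.

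Of 13 interferon genes with a probe, 4 were not well above background on any array and 3 were on all 7, while 4 were above it on day 42 and 9 on day 46. Ifna9 (0.88 log2 units), Ifna13 (0.89) and Ifnz (0.18), the 3 measured on every array, stayed inside 2-fold between day 42 and day 46. The median difference over 9 measured genes was 0.89 and 4 were at least 2-fold higher, of which Ifna12 (1.42 log2 units) was well above background on both arrays and Ifna1, Ifnab and Ifnl3 on day 46 but not on day 42. Their summed signal was 0.50 times the 75th percentile on day 42 and 0.90 times on day 46, and it was 0.52 to 0.79 times in the other 5 samples. The day 46 array also had more genes above background than any other array, and the part of this in the result was not tested.

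Leukocyte markers differed in both directions. Of 17 measured at day 46 against day 42, 5 were at least 2-fold higher and 3 lower, with a median of 0.00, and the T cell gene Cd3e stood at 1.63, whereas S100a9 (-1.80) and Itgax (-1.64), genes of myeloid cells, were lower. Their summed signal was 62.0 times the 75th percentile on day 42 and 39.3 on day 46, while that of the 9 response genes was 2.87 and 7.29. Ptprc, which encodes the leukocyte antigen CD45, stood at 0.50 and 0.59, and the macrophage gene Adgre1 at 4.68 and 4.27. On both ES-derived arrays Cd8a and Siglech stayed near background. None of the 8 epithelial marker genes was past 2-fold (median 0.20). Adult stomach markers had a median of 1.40, with 4 of 8 at least 2-fold higher and 2 lower, and adult esophagus markers one of 0.93, with 3 of 6 higher. The part of these cell types in the difference of the 9 genes was not tested.

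**Figure D4:**
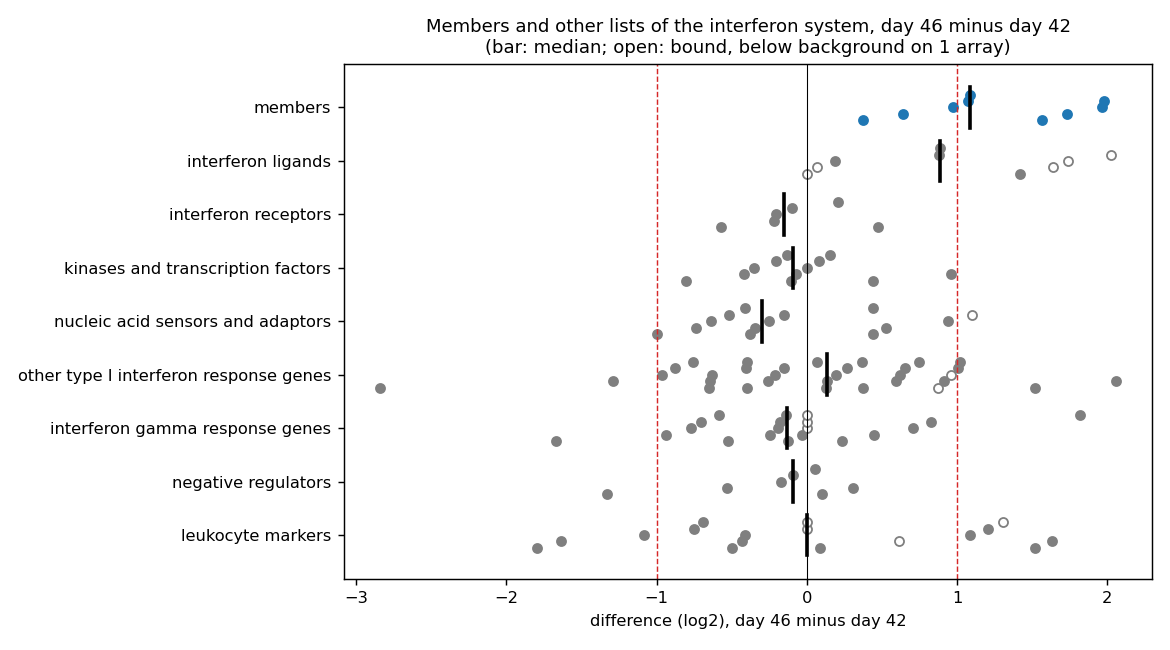
Log2 difference between the day 46 and the day 42 array for the 9 genes (members, blue) and the genes of 8 other lists (grey), with a bar at the median of each list and dashed lines at 2-fold. Open points are genes below background on 1 array, drawn at the bound, or at 0 where the bound gives no fold; the 9 genes have the highest median of the lists drawn, 1.09, and the receptor genes lie between -0.57 and 0.48.

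Both ES-derived samples were set against adult stomach, the adult form of the organ in their label. Of the 9 genes, 4 were lower on day 42 by 2-fold or more, against 22.6% of all genes, and none was at least 2-fold higher, against 20.2%. Rsad2 was 6.75-fold lower (-2.75 log2 units), Ifit1 4.49-fold (-2.17), Irf7 3.96-fold (-1.98) and Ifit2 2.71-fold (-1.44). The other Rsad2 probes, not well above background on day 42, gave bounds of at least 3.26-fold and 1.29-fold lower. Ifi44, at -1.00 (just short of 2-fold), Oasl2 (-0.89) and Usp18 (-0.70) were also lower by more than the SD between probes, 0.65. With that SD taken as a root mean square, 0.87, Usp18 lay within it and Oasl2 at its edge. Isg15 (-0.33) and Ifit3 (-0.16) lay within it, and both turned positive, to 0.14 and 0.31, with arrays centred on their medians. Under that centring all genes had a median of 0.43, and higher genes made up 67.8% of the 2-fold calls in place of 47.1%, which left the median of the 9 genes at -0.53, from -1.00.

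On day 46 the counts of higher and lower genes were near the shares over all genes. Against adult stomach, 2 genes were at least 2-fold higher (19.4% of all genes) and 2 at least 2-fold lower (22.1%), with a median of -0.20. The higher ones were Ifit3, 2.98-fold (1.58 log2 units), and Isg15, 2.36-fold (1.24), followed by Ifi44 at 1.97-fold (0.98). The lower ones were Rsad2, 3.43-fold (-1.78), and Irf7, 3.05-fold (-1.61). By its other probes Rsad2 read -1.84 and -0.67, and the second of these lies inside 2-fold. Ifit1 (-0.20), Oasl2 (-0.25), Ifit2 (-0.35) and Usp18 (0.37) lay within the SD of 0.60, although the second Ifit2 probe read -2.09. The 2 ES-derived comparisons share the adult stomach array, so that array's own deviations enter both.

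Other type I response genes were spread on both sides of adult stomach on day 42, with 8 of 31 at least 2-fold higher, 8 lower and a median of 0.15. Interferon gamma response genes were mostly lower, with 9 of 20 at least 2-fold lower and 2 higher (median -0.84), and Ciita, the activator of class II antigen presentation genes, was not well above background on day 42. Leukocyte markers were at least 2-fold lower in 10 of 18 and higher in 4 (median -1.54), although their summed signal was higher on day 42 (62.0) than in adult stomach (20.5), and the macrophage gene Adgre1 stood at 4.68 against 0.74. Their part in the result was not tested.

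The E9.5 stomach was set against adult stomach to compare the organ before and after its development. At E9.5, 8 of the 9 genes were lower by 2-fold or more, against 29.8% of all genes, and none was at least 2-fold higher, against 27.3%. Isg15 was 45.6-fold lower (-5.51 log2 units), Ifit3 42.5-fold (-5.41), Oasl2 26.7-fold (-4.74) and Rsad2 16.4-fold (-4.03). The other Rsad2 probes, not well above background at E9.5, gave bounds of at least 5.94-fold and 2.36-fold lower. For the 4 genes not well above background at E9.5 the fold is a bound: Usp18 was at least 42.8-fold lower, Irf7 at least 30.4-fold, Ifit1 at least 28.8-fold and Ifi44 at least 21.3-fold. By the brightest probe of each gene, the differences of these 8 genes lay among the lowest 7.56% of all genes. The exception was Ifit2, at 0.38 by the brighter probe and 0.08 by the other, both within the SD of 0.38, and at -0.042 under another background correction. The size of the E9.5 difference depends on that correction: the median of the 9 genes was -4.85, and -2.74 when the background was modelled with normexp and an offset of 50 was added. With arrays centred on their medians the median of all genes was 0.54 and the share of 2-fold calls that were higher went from 47.8% to 63.5%, while the 9 genes had a median of -4.28.

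Most other parts of the pathway, though not the interferon genes or the negative regulators, were also lower at E9.5. Other type I response genes were at least 2-fold lower at E9.5 in 26 of 31 (median -3.78), and interferon gamma response genes in 19 of 20 (median -4.28). Sensors and adaptors were lower in 12 of 13 (median -2.40), with the RNA sensor Ifih1 at -6.31 in E9.5 and 0.04 in adult stomach. Kinases and transcription factors were lower in 8 of 12 (median -1.59), receptors in 4 of 6 (median -2.24), and 1 negative regulator of 7 was lower while 2 were higher. Leukocyte markers were at least 2-fold lower in 14 of 18, with a median of -3.17 and 0 higher. Their summed signal was 1.28 times the 75th percentile at E9.5, 20.5 in adult stomach and 21.3 to 86.5 in the other 5 samples, with Adgre1 not well above background and Ptprc at -6.24. Epithelial markers were lower in 7 of 8 (median -3.44), with a summed signal of 38.1 against 668. The part of these cell types in the result was not tested.

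Set against E9.5 stomach, the day 42 tissue had 8 of the 9 genes at least 2-fold higher (28.1% of all genes) and 1 at least 2-fold lower (25.9%), with a median of 3.41. Ifit3 was 38.1-fold higher (5.25 log2 units), Isg15 36.4-fold (5.19), Oasl2 14.5-fold (3.85) and Rsad2 2.43-fold (1.28), against an SD of 0.66. As bounds, Usp18 was at least 26.3-fold higher, Ifi44 10.6-fold, Irf7 7.69-fold and Ifit1 6.41-fold. Ifit2 was the lower one, 3.53-fold (-1.82) by the brighter probe and 5.38-fold (-2.43) by the other. Under normexp the median was 1.40, and 7 of the 9 genes were at least 2-fold higher, against 23.2% of all genes. All 6 receptor genes were at least 2-fold higher on day 42 than at E9.5 (median 3.19), as were 9 of 12 kinases and transcription factors (median 1.66) and 8 of 8 epithelial markers (median 3.83). This comparison shares the E9.5 array with the one before.

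Adult organs were hybridised on the same slide, which makes their comparison the only one free of a slide difference. Intestine had 7 of the 9 genes at least 2-fold higher than stomach (17.9% of all genes) and none at least 2-fold lower (19.2%), with a median of 1.72. Irf7 led with a 10.9-fold difference (3.45 log2 units), followed by Oasl2 at 6.20-fold (2.63), Ifit1 at 4.74-fold (2.24) and Isg15 at 4.50-fold (2.17). Ifit3, Usp18 and Rsad2 were higher by 1.72, 1.20 and 1.08 log2 units. Ifi44 (0.14) and Ifit2 (-0.03) lay within the SD of 0.29, and Ifit2 turned to 0.094, 0.098 and 0.024 under median centring, quantile normalization and normexp.

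Lung also had 7 of the 9 genes at least 2-fold higher than stomach (18% of all genes) and none at least 2-fold lower (21.8%), with a median of 1.55. Here Rsad2 (6.76-fold, 2.76 log2 units) and Ifit3 (6.37-fold, 2.67) led, ahead of Ifit1 (3.98-fold), Ifit2 (3.22-fold), Ifi44 (2.94-fold), Oasl2 (2.45-fold) and Usp18 (2.38-fold). Isg15 was 1.49-fold higher (0.57), and Irf7 (-0.28) lay within the SD of 0.33.

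Of these 3 organs, esophagus had the smallest median difference from stomach, 0.47, with 3 of the 9 genes at least 2-fold higher (14% of all genes) and none at least 2-fold lower (15.6%). The 3 were Ifit2, 4.80-fold (2.26 log2 units, and 1.49 by its second probe), Rsad2, 3.10-fold (1.63), and Ifit3, 2.19-fold (1.13). The remaining 6 lay between -0.09 (Ifi44) and 0.59 (Oasl2), against an SD of 0.30. The 3 organ comparisons share the adult stomach array.

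Different genes of the set led in intestine and in lung. Irf7 was 13.2-fold higher in intestine than in lung, Isg15 3.03-fold and Oasl2 2.53-fold. In the other direction, Ifit2 was 3.28-fold higher in lung, Rsad2 3.21-fold, Ifi44 2.66-fold and Ifit3 1.94-fold, while Ifit1 (-0.25 for lung minus intestine) and Usp18 (0.05) lay within the SD of 0.32. Interferon gamma response genes were at least 2-fold higher than in stomach in 15 of 20 in lung (median 1.33) and 8 of 20 in intestine (median 0.94). Other type I response genes were higher in 16 of 31 in lung and 14 of 31 in intestine, with 2 lower in each. Receptors were at least 2-fold higher in 5 of 6 in intestine (median 1.73) and 2 of 6 in lung (median 0.52). Sensors and adaptors were higher in 8 of 13 in intestine (median 1.27) and 4 of 13 in lung (median 0.07). Leukocyte markers were at least 2-fold higher than in stomach in 14 of 19 in lung and 11 of 19 in intestine, and their summed signals were 86.5 and 84.4 times the 75th percentile against 20.5 in stomach and 21.3 in esophagus. The summed signal of the 9 response genes was also higher in those organs, 23.3 in intestine, 14.8 in lung, 8.32 in esophagus and 5.01 in stomach, although intestine came before lung, and the part of leukocytes in it was not tested.

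**Figure D5:**
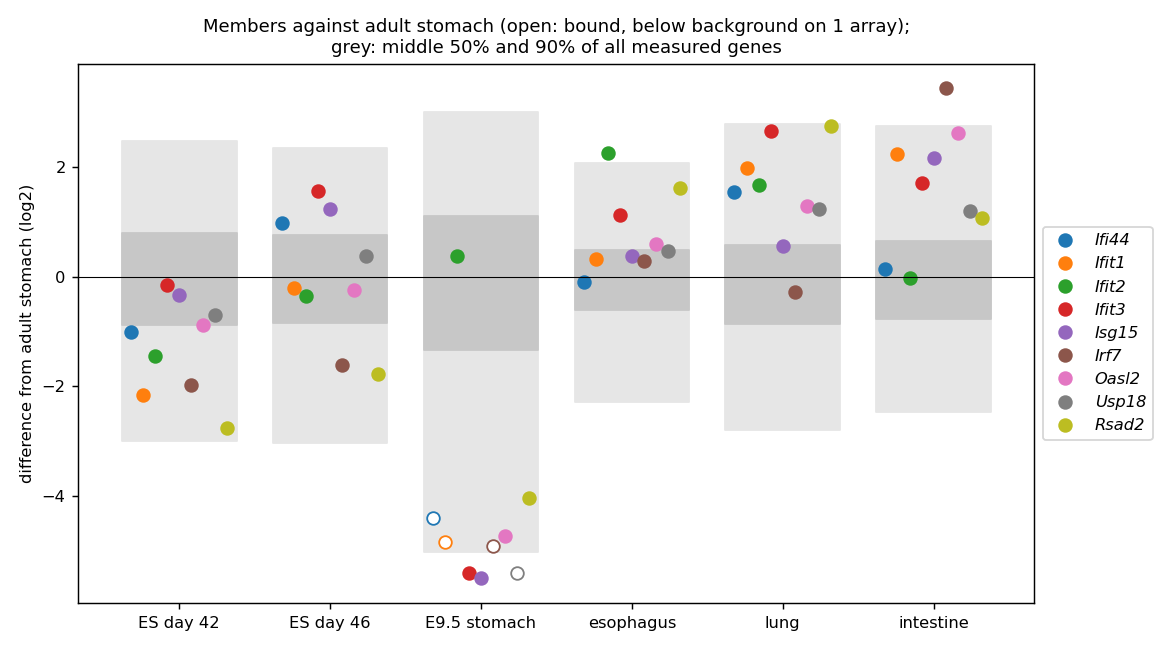
Log2 difference of each gene from adult stomach in the other 6 samples; each point is 1 gene, open where it is a bound because the gene was not well above background on 1 array, and the grey bars span the middle 50% and 90% of all measured genes. At E9.5 all points but Ifit2 lie between -5.51 and -4.03, and in lung and intestine 7 of the 9 points lie above 1.

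The 9 genes varied in how closely their levels ran together. Over the 6 arrays without E9.5, the 36 pairs of genes had Pearson correlations of their levels from 0.06 to 0.98, with a median of 0.67, as a description of 6 arrays that share their scaling. The closest pair was Ifit1 and Usp18 (0.98), followed by Ifit1 with Oasl2 (0.93) and Irf7 with Oasl2 (0.92). The least alike were Ifi44 with Irf7 and Ifit2 with Isg15, both at 0.06.

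A profile of the 5 genes that were well above background on every array (each gene's levels minus its own mean, then the median over genes) was set against 7379 other genes. The genes most like it over the 7 arrays, by Pearson correlation, were Ccl6 (0.990), a chemokine, Adcy9 (0.986), Nr1d2 (0.986), Tmcc3 (0.984) and Rtp4 (0.984). Next came Ly86 (0.982), Rnf213 (0.981) and Ncoa1 (0.981). Without the E9.5 array, on which the profile stood at -4.55, the correlation of Ccl6 was 0.932 and that of Rtp4 was 0.922. Among the first 20 genes, 3 belonged to the list of other type I response genes. Of that list, 25 genes were well above background on every array, and those ranked ran from place 5 to place 3879 of the 7379. These correlations rest on 7 points that share their arrays and are a description only.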

How the data were processed

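Total RNA of 7 mouse samples was labelled with Cy3 and hybridised to 7 Agilent one-colour arrays, 1 per group, per the labels. The authors deposited scanner files that hold, per the file headers, the intensity of every spot after background correction, with flags for controls, outliers and spots well above background. The submitters' processing notes name Agilent Feature Extraction 10.5, and the file headers give versions 10.7.3.1 (ES-derived arrays) and 10.5.1.1 (the other 5). The authors also deposited a log2 table set to the 75th percentile, whose correlation with the present values was at least 0.999.

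Of 45018 spots per array, 43379 were not controls, and outliers (40 to 728 per array) were left out. No spot was saturated. Spots of a probe were averaged as log2 intensity, and each array was shifted by its 75th percentile. A probe was well above background where a share of 0.5 or more of its spots carried the flag. The 41174 probes comprised 24375 with a gene by accession, 57 with one by symbol or synonym, and 16742 without a name. The probe with the highest mean stood for a gene. For a gene below background on 1 array of a pair, the lowest signal called above background there was used if it exceeded the gene's own, so that the fold is a lower bound. The SD between probes is rescaled from the median absolute difference between 2 probes of a gene. As a root mean square, which gives weight to discordant probes, it was 0.51 for day 46 against day 42. That measure was the larger one for every pair of arrays, from 0.48 to 0.93, so some gaps described as beyond the SD lie within it. With 1 array per group there was no test. Genes named from the other lists were the 4 with the largest difference between days 46 and 42 or the largest range in each list. Stat2, Oas3, Ifi44l, Cmpk2, Ifna9, Ifna13, Ifnz, Ptprc, Cd8a and Siglech lie outside that rule and were named after their values were seen. Rtp4 is among the genes named for their correlation with the profile. The genes, lists and thresholds were chosen with earlier results of these data known.

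The settings varied were the scaling (median centring, quantile normalization or the authors' table), normexp (limma 3.58.1, R 4.3.3, offset 50), no filter on background, genes above background on both arrays, the mean over probes, and 1.5-fold and 4-fold limits. Tables were made with Python 3.11.15, numpy 2.4.6 and pandas 2.3.3. The counting was tested on simulated data.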

Additional observations from a re-analysis of the deposited data

How the results depend on the processing

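Of 200 values and counts over the 9 genes under the alternatives, 182 kept their direction within the spread, 18 moved and none turned. For single genes, 431 of 495 kept, 56 moved and 8 turned. The median at E9.5 against adult stomach (-4.85) became -4.28 under median centring, -4.32 under quantile normalization, -2.74 under normexp and -5.41 without the filter on background. That of day 42 against E9.5 (3.41) became 1.40 under normexp and 4.72 without the filter, and that of lung against stomach (1.55) became 1.16 under normexp. Keeping only genes well above background on both arrays leaves out the 4 genes below it at E9.5. Then 4 were at least 2-fold lower at E9.5 than in adult stomach (26.6% of all genes). On day 42, 4 were at least 2-fold higher than at E9.5 (27.3% of all genes). A 1.5-fold limit called 7 genes lower on day 42 than in adult stomach, in place of 4, against 31.7% of all genes. At 4-fold, no gene was called higher at day 46 against day 42 (0, and 1.04% of all genes), and 2 were lower on day 42 than in adult stomach (10.3%). The 4-fold limit left 0 higher (6.86%) and 0 lower (9.91%) at day 46 against adult stomach and 0 lower on day 42 than at E9.5 (11.5%). It left 1 higher in esophagus (5.31%), 2 in lung (8.83%) and 4 in intestine (7.95%). Single genes turned sign only where the difference was small. Irf7 at day 46 against day 42 read -0.026 under median centring and -0.058 under quantile normalization. On day 42 against adult stomach, Ifit3 read 0.31 and Isg15 0.14 under median centring. In intestine, Ifit2 read 0.094 under median centring, 0.098 under quantile normalization and 0.024 under normexp, and at E9.5 it read -0.042 under normexp. Apart from what the alternatives' construction shows, the cause was not tested. No paired analysis was possible because each group has 1 array. The low signal at E9.5 is limited by the background of that array, so folds there are bounds for 4 genes.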

Other observations

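Genes of the list of other type I response genes with the widest range over the 7 arrays were Oasl1 (10.7 log2 units), Ifi27l2a (10.0), Ifi27 (9.78) and Parp14 (8.75). Oasl1, a restraint on Irf7 translation in mouse, read -1.12 on day 42, 0.94 on day 46, 2.26 in adult stomach, 3.81 in intestine, -2.93 in lung and -1.62 in esophagus, and was not well above background at E9.5. It was thus low in lung, where Rsad2 and Ifit3 were highest. Ifi27l2a, a mitochondrial protein induced by interferon, read 4.41 on day 42, 3.45 on day 46, -3.48 at E9.5, 5.16 in adult stomach, 6.34 in intestine, 4.37 in lung and 6.53 in esophagus.

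The receptor gene Ifnar1 had its highest levels in the ES-derived samples, 0.96 on day 42 and 1.16 on day 46, against -0.47 at E9.5 and -2.09 to -0.43 in the adult organs. Ikbke, a kinase upstream of Irf3 and Irf7, was also highest there, at 0.12 and -0.88, against -3.08 to -1.80 in the adult organs and -6.15 at E9.5. Psmb8, a subunit of the immunoproteasome, read 4.85 in intestine, 3.29 in lung and between 1.26 and 1.66 in the 2 ES-derived samples, adult stomach and esophagus, and was not well above background at E9.5.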
